A study of Mus musculus with 6 samples.

Results

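The genes described here are the 7 enzymes of cholesterol oxidation products, the oxysterols, that the study's expression matrices were read for by symbol: Cyp46a1, Ch25h and Cyp27a1, which make oxysterols; Cyp7b1 and Hsd3b7, which break them down towards bile acids; Soat1, which esterifies sterols; and Ephx2, an epoxide hydrolase. All 7 were found among the 33457 features of each matrix. The measurement was single-nucleus RNA sequencing, in which each captured nucleus carries a barcode and each transcript molecule a unique molecular identifier (UMI). There were 6 libraries from mice aged 9 months, 1 library in each group, so no comparison between groups has a replicate check and no p-value is given. The titles name the hippocampus as the source, while the tissue field reads nuclei of brain and the extraction text starts from the left hemisphere.

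The group FE3 was APOE3 fl/fl and the group FE4 was APOE4 fl/fl, meaning mice whose human APOE3 or APOE4 gene is flanked by loxP sites; the labels list both under strain B6 with no treatment. The 4 other groups carried the human tau transgene P301S together with the same floxed alleles and a tamoxifen-inducible Cre written Aldh1la1CreERT. TAFE3_oil and TAFE4_oil received oil, and TAFE3_tam and TAFE4_tam received tamoxifen, which activates the Cre. A difference between an oil library and its FE library therefore joins tau, the Cre transgene and oil, and these cannot be told apart. Likewise, a difference between a tamoxifen library and its oil library joins the drug itself and the action of the Cre on APOE. These cannot be told apart either, since no library without the Cre received tamoxifen. The sources used here do not give how many animals stand behind a library.

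The brain makes its own cholesterol, because lipoproteins of the blood do not cross the blood-brain barrier, and neurons hydroxylate the excess with the Cyp46a1 enzyme into an oxysterol that can leave the brain. The hydroxylase Ch25h is known as an interferon-inducible gene of macrophages, and its product, like those of Cyp46a1 and Cyp27a1, can activate the liver X receptors (LXR), which switch on genes of cholesterol export such as Abca1. Cyp7b1 and Hsd3b7 act in sequence on side-chain oxysterols, and in immune tissue the same steps set the gradient of the ligand of the receptor Gpr183. Soat1 stores surplus sterol as cholesteryl ester, and Ephx2 encodes soluble epoxide hydrolase, which converts epoxides of fatty acids to diols.

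On the mouse assembly GRCm38 (mm10) with GENCODE vM21 gene models, Cyp27a1 lies at chr1:74713574-74737892 on the plus strand and Soat1 at chr1:156424525-156474331 on the minus strand. Cyp7b1 spans chr3:18071950-18243338 (minus), Hsd3b7 chr7:127800604-127803802 (plus), Cyp46a1 chr12:108334381-108362234 (plus) and Ephx2 chr14:66084374-66124500 (minus). Ch25h is a single-exon gene at chr19:34473778-34475164 (minus) and shares 357 bases with the gene Gm26902 on the opposite strand, which has its own row in the matrices. The sources used here do not say whether counting used the strand, so reads from the shared bases cannot be assigned to 1 of these 2 genes. Hsd3b7 lies wholly within the gene model Gm49388 on the same strand, which has no row in the matrices.

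The stretches of 250 bases before the annotated start are shown for Cyp46a1 and Ch25h, because the 2 genes differ in base composition there. A link between these bases and the levels of the genes was not tested. Levels are given as CPM, the gene's UMI count scaled to the total UMIs of the class. RefSeq promoter windows (GRCm38.p6, 250 bases before to 50 after the start) were at hand for 5 of the 7 members. The lines read 5′ to 3′ on the gene's strand, Cyp46a1 at chr12:108334066-108334315 (plus) and Ch25h at chr19:34475149-34475398 (minus), and capitals mark searched motifs.
Cyp46a1: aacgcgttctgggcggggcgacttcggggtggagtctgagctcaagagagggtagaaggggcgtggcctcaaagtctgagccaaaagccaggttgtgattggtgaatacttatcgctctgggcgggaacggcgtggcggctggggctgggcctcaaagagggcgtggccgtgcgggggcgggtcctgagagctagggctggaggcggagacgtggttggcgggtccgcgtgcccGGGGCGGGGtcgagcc
Ch25h: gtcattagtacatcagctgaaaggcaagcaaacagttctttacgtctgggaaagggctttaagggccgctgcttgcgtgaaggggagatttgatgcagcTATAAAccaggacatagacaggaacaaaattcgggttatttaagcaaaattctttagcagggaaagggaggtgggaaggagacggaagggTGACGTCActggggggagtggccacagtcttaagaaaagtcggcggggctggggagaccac
Over its whole window Cyp46a1 had 70.3% G or C and 31 CG pairs, against a median of 52.7% and 7 CG pairs over 32851 promoter windows, and it held the GC box GGGGCGGGG at positions -16 to -8. Ch25h had 51.0% G or C and 10 CG pairs, the letters TATAAA at -151 to -146 and the cyclic AMP response element TGACGTCA at -61 to -54. Searched on both strands, with no overlap between the motifs found, GGGGCGGGG stood in 11.4% of all windows, TATAAA in 13.6% and TGACGTCA in 1.79%. The interferon-response core GAAANNGAA stood in 8.56% of windows and in none of the 5 members' windows, which says only that these letters are not there.

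Library totals lay between 39050503 and 49083723 UMIs over 14762 to 18171 barcodes, and 9369 to 15918 nuclei per library entered the values below. The median share of mitochondrial UMIs per barcode was 0.625% in FE4 and 0.695% in TAFE4_tam and 2.01% to 3.23% in the other 4 libraries, so quality moved with the groups; its part in the results was not tested. TAFE4_tam held 32 nuclei of a cluster led by liver genes, against 0 to 3 in each other library, and FE4 held 248 of the 267 nuclei of an astrocyte cluster with neuronal transcripts and a high doublet score, which was left unnamed. Libraries shared 65 to 83 barcodes per pair. Human APOE, the floxed gene, stood at 16608 and 19114 CPM in astrocytes of TAFE3_oil and TAFE4_oil and at 5247 and 5228 in TAFE3_tam and TAFE4_tam, while microglia held 20699 and 21377 after tamoxifen.

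Clustering without the 7 members gave 27 clusters, and 15 classes were named from marker genes; a class name such as astrocytes stands for astrocyte-like nuclei throughout. In 12 of the classes every measured marker was over 2-fold higher than in the remaining nuclei, while 5 of 6 CA1, 6 of 7 CA2 or CA3 and 6 of 10 subicular or cortical markers were. Levels are CPM, as above, compared within a gene and never between genes. Where 6 values are listed in a row, their order is FE3, FE4, then TAFE3_oil, then TAFE3_tam, then TAFE4_oil, then TAFE4_tam. The order of levels rests on the 11 classes with at least 50 nuclei in every library.

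The 7 genes divided between neurons, astrocytes, microglia and oligodendrocytes. Classes in the order were ranked by their median over the 6 libraries. Cyp46a1 led in inhibitory neurons, Ch25h in microglia and Cyp27a1 in oligodendrocytes. Cyp7b1, Hsd3b7, Soat1 and Ephx2 led in astrocytes. The lead of Ch25h did not hold in every library, since in FE4 inhibitory neurons stood at 3.67 CPM and microglia at 2.27 CPM. Pericytes or smooth muscle cells ranged from 0 to 22.6 CPM for this gene and microglia from 2.27 to 39.6 CPM. The lead classes of Ch25h, Cyp27a1, Cyp7b1, Soat1 and Ephx2 were the same under each of the alternatives run, that of Hsd3b7 turned to microglia without a mitochondrial limit and with a 1% limit, and that of Cyp46a1 to subicular or cortical neurons with the 1% limit.

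**Figure D1:**
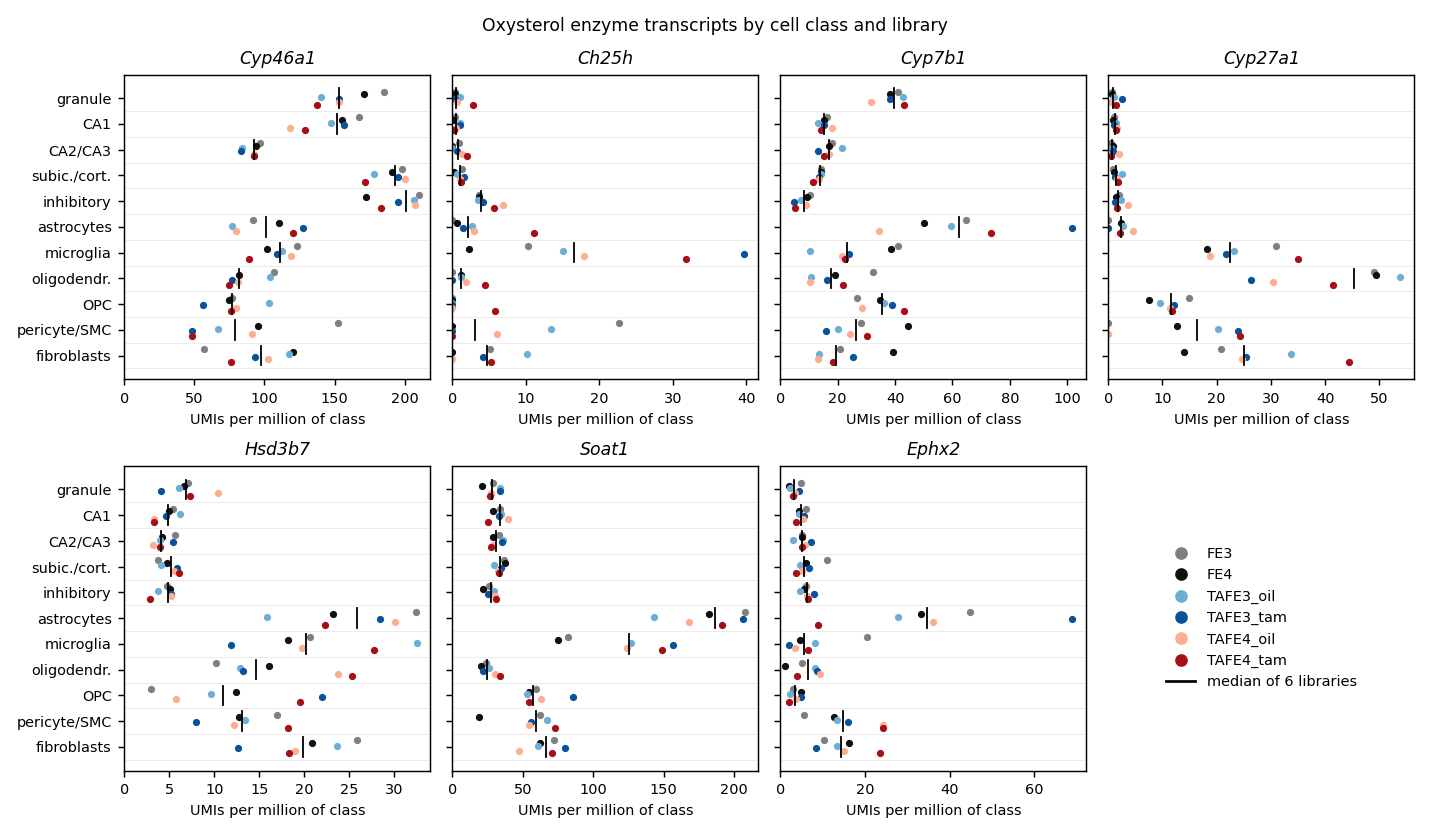
Each panel is 1 gene, the x axis is its level in CPM on a linear scale that differs between panels, and the rows are cell classes. Points are the 6 libraries, black bars their median; Soat1 stands at a median of 187 in astrocytes and 24.7 in oligodendrocytes, and Cyp27a1 at 45.3 in oligodendrocytes and 2.30 in astrocytes.

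Cyp46a1, the hydroxylase of neuronal cholesterol, was found in all classes. In inhibitory neurons it stood at 210, 172, 207, 195, 208 and 183 CPM, and in subicular or cortical excitatory neurons at 198, 191, 178, 196, 200 and 172 CPM. These top 2 classes overlapped in range and are not separated. Dentate granule neurons followed with a median of 153 CPM (137 to 185) and CA1 neurons with 151 CPM (119 to 167), also overlapping each other. CA2 or CA3 neurons were the lowest of the neuronal classes at 83.4 to 97.1 CPM, below the lowest CA1 library. Glia read 74.6 to 107 CPM in oligodendrocytes, 88.6 to 123 in microglia and 76.7 to 127 in astrocytes, which all overlap CA2 or CA3 neurons.

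Free RNA from broken neurons reaches all droplets in such data, and its mark was measured with 7 neuronal transcripts, Snap25 among them. Per 1000 UMIs of those transcripts, Cyp46a1 gave 3.22 to 4.91 UMIs in inhibitory neurons, 7.96 to 11.6 in microglia, 8.77 to 13 in oligodendrocytes and 9.32 to 16.7 in astrocytes. The ratio was therefore higher in every library of these 3 glial classes than in any of inhibitory neurons. Dentate granule neurons gave 7.68 to 9.90, which overlaps microglia, oligodendrocytes and astrocytes. How much of the glial Cyp46a1 signal came from free RNA was not tested.

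Ch25h, a gene of activated macrophages, was sparse, with 441 UMIs in all nuclei used. In microglia it stood at 10.3 CPM (1 UMI) in FE3, 2.27 CPM (1 UMI) in FE4, 15.1 (13 UMIs) in TAFE3_oil, 39.6 (20 UMIs) in TAFE3_tam, 17.9 (20 UMIs) in TAFE4_oil and 31.8 (48 UMIs) in TAFE4_tam. Both FE libraries lay below all 4 tau libraries, but each rests on 1 UMI, whose exact Poisson 95% interval runs from 0.26 to 57.3 CPM in FE3 and from 0.0575 to 12.6 in FE4. A UMI of the gene was seen in 0.192% to 3.31% of microglia per library at median depths of 706 to 927 UMIs, and, over all libraries, in 0.200% of oligodendrocytes at median depths of 853 to 1071. All intervals cover counting error only.

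Most Ch25h UMIs of any single class, 115, lay in inhibitory neurons, at 3.51 to 6.95 CPM per library. By level they did not stand apart from the vessel and membrane classes, whose counts are few: leptomeningeal fibroblasts held 7 UMIs at 0 to 10.1 CPM per library, pericytes or smooth muscle cells 7 UMIs at 7.47 CPM over all libraries (interval 3.00 to 15.4) and endothelial cells 12 UMIs at 7.03 CPM (3.63 to 12.3), against 4.81 CPM (3.97 to 5.77) in inhibitory neurons. Within inhibitory neurons the level was highest in a cluster led by Pvalb and Tac1, markers of fast-spiking interneurons. That cluster held 68 UMIs in 1527 nuclei, 12.2 CPM with an interval of 9.48 to 15.5, against 5.15 CPM in the cluster led by Sst and 1.46 CPM in the cluster led by Vip and Dlx6os1. A further cluster of 924 nuclei led by Nxph1 and Pvalb held 6 UMIs, 1.71 CPM (0.63 to 3.72), so the level was not shared by all nuclei with Pvalb. In the first of these clusters it was seen in all 6 libraries, at 7.99, 29.1, 7.31, 6.06, 15.5 and 10.6 CPM in the order above. In all classes other than microglia, inhibitory neurons and border macrophages summed, most of whose UMIs are from excitatory neurons, Ch25h stood at 0.263 to 2.02 CPM per library, while 10 microglia markers summed there to 142 to 520 CPM.

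Cyp27a1, the mitochondrial sterol hydroxylase, led in oligodendrocytes with 49.1, 49.4, 53.8, 26.3, 30.3 and 41.5 CPM. Leptomeningeal fibroblasts had a median of 25 CPM (13.9 to 44.4) and microglia of 22.5 CPM (18.2 to 35.1), and these overlapped each other and the lower oligodendrocyte libraries. Astrocytes had 10 UMIs of it in all, with 0 UMIs in FE3 and TAFE3_tam and at most 4.50 CPM in the others. Each of the 5 neuronal classes had a median under that of astrocytes, but within the astrocyte range, so these classes are not separated. Over all libraries together, inhibitory neurons stood at 2.13 CPM and astrocytes at 1.99 CPM. In the liver-gene cluster of TAFE4_tam it stood at 438 CPM; at the ratio of that cluster, the liver transcripts read in TAFE4_tam would bring 2.19 of 35.1 CPM to microglia and 2.49 of 41.5 CPM to oligodendrocytes.

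Cyp7b1, the oxysterol hydroxylase that opens the breakdown, stood in astrocytes at 64.7, 49.99, 59.5, 102, 34.5 and 73.4 CPM in the same order of libraries, with TAFE3_tam highest and TAFE4_oil lowest. Among neurons it was highest in dentate granule neurons, at 41.0, 38.2, 42.6, 38.4, 31.7 and 43.2 CPM. Every granule neuron library lay above every library of CA2 or CA3 neurons (13.3 to 21.7), CA1 neurons (13.2 to 18), subicular or cortical neurons (11.3 to 14.3) and inhibitory neurons (4.66 to 10.3). Astrocytes and granule neurons overlapped at their edges through TAFE4_oil, and oligodendrocyte precursors (26.7 to 43.0 CPM) overlapped granule neurons. The 907 UMIs in granule neurons make this the most deeply counted of its class levels.

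Hsd3b7, the dehydrogenase of the next breakdown step, was low and spread over glia and the vessel and membrane classes. Astrocytes held 32.4, 23.2, 15.9, 28.5, 30.0 and 22.2 CPM in the order above, and microglia 20.6, 18.2, 32.5, 11.9, 19.7 and 27.8 CPM. The ranges of astrocytes, microglia and leptomeningeal fibroblasts (12.7 to 25.9) overlapped, and no order among these 3 is drawn. The 5 neuronal classes had medians of 4.06 to 6.81 CPM. Endothelial and choroid plexus epithelial cells are not in the order, since each had at least 50 nuclei in 5 of the 6 libraries. In those 5, endothelial cells had a median of 26.8 CPM (17.9 to 51.4), against 25.8 CPM in astrocytes, with overlapping ranges. Choroid plexus epithelial cells of FE3 reached 58.5 CPM on 18 UMIs.

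Soat1, the sterol acyltransferase, was the member with the clearest astrocyte level: 208, 182, 143, 207, 168 and 191 CPM. Microglia came next with 82.3, 74.9, 127, 157, 124 and 149 CPM, so that the 2 classes overlapped in TAFE3_tam and TAFE4_tam alone against the lowest astrocyte library, while within each library astrocytes were higher. The 5 neuronal classes and oligodendrocytes had medians of 24.7 to 33.8 CPM. The lowest median was that of oligodendrocytes, but their range of 20.2 to 33.7 CPM overlapped that of each neuronal class, so these classes are not separated. With each nucleus thinned to 1000 UMIs, a Soat1 UMI was found in 15% to 21% of astrocytes and 1.17% to 3.39% of oligodendrocytes per library; unthinned, the shares over all libraries were 29.2% and 2.67%.

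Ephx2, the soluble epoxide hydrolase, also led in astrocytes, with 44.8, 33.3, 27.8, 68.9, 36.0 and 8.90 CPM in the same order, the last on 4 UMIs. Outside TAFE4_tam the lowest astrocyte library, 27.8 CPM, was above the 8.45 to 23.5 CPM of leptomeningeal fibroblasts and the 5.65 to 24.3 CPM of pericytes or smooth muscle cells. The neuronal classes, oligodendrocytes and their precursors had medians of 3.26 to 6.63 CPM and are not separated from one another.

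**Figure D2:**
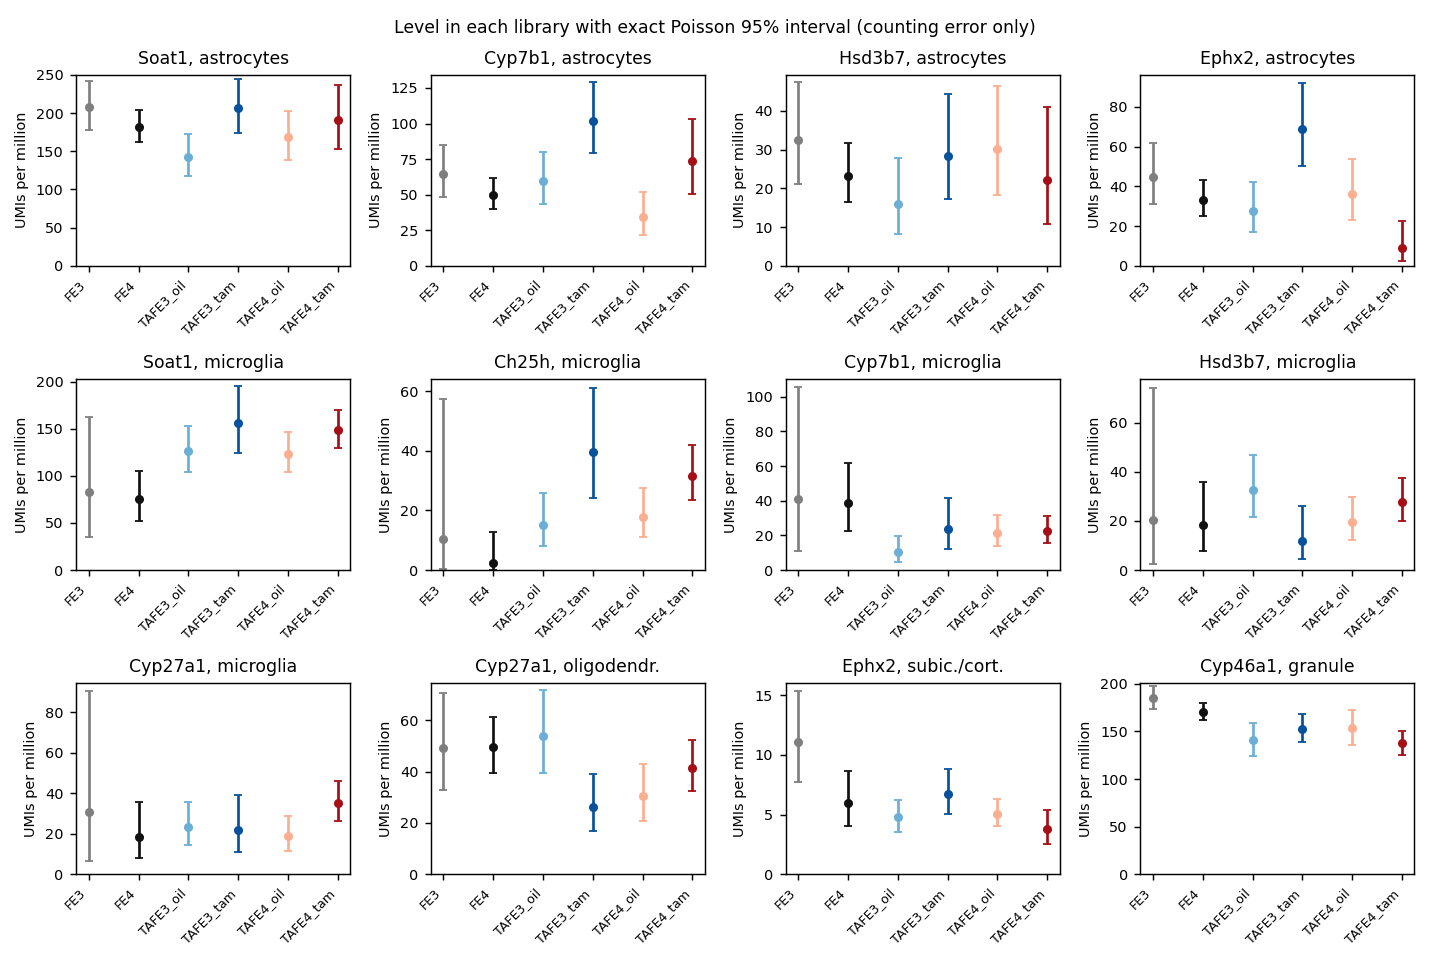
Each panel is 1 gene in 1 class; the y axis is the level in CPM, the x axis the 6 libraries, and bars are exact Poisson 95% intervals, which cover counting error only. Soat1 in microglia lies at 74.9 and 82.3 in the FE libraries and at 124 to 157 in the tau libraries, and Ephx2 in astrocytes lies at 68.9 in TAFE3_tam and 8.90 in TAFE4_tam.

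The first comparison asked how the members differ between mice with and without the tau transgene. In TAFE3_oil against FE3, 6 of 50 member values with at least 20 UMIs over both libraries were at least 2-fold apart with a 95% interval off 0, 1 higher and 5 lower in TAFE3_oil; over all genes and classes 4.37% of values met this rule. In TAFE4_oil against FE4 it was 3 of 54 values, 1 higher and 2 lower, against 9.18% over all genes, so the members' share lay below that of all genes. No member met the rule in both APOE backgrounds in the same class. The ratio is on the log2 scale of CPM, with an exact binomial interval conditional on the sum of the counts.

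Of these values, Ephx2 in subicular or cortical neurons met the rule under each of the 12 alternatives run. Not all of the 12 could drop a call, here or in the tallies below. Dropping the minimum of UMIs only loosens the rule. Keeping the doublet-like microglia and astrocyte clusters leaves the counts of every other class unchanged. A higher minimum of UMIs is decided by the counts alone. Ephx2 stood at 11.1 CPM (35 UMIs) in FE3 and 4.76 CPM (51 UMIs) in TAFE3_oil, a log2 ratio of -1.22 (95% interval -1.87 to -0.55). FE4 stood at 6.01 CPM and TAFE4_oil at 5.06 CPM, and TAFE3_tam and TAFE4_tam at 6.75 and 3.77 CPM, so FE3 stands above the remaining 5. The class is made of different clusters in the 2 libraries: cluster 2, led by Igfn1 and Rorb, held 137 nuclei in FE3 and 1930 in TAFE3_oil, whereas cluster 8, led by Tshz2, held 421 and 389. Within cluster 8 Ephx2 stood at 6.5 (7 UMIs) CPM in FE3 and 3.69 (4 UMIs) CPM in TAFE3_oil, within cluster 5 (led by Ctgf and Cwh43) at 13.8 (14 UMIs) and 2.9 (9 UMIs) CPM, within cluster 2 at 6.9 (3 UMIs) and 5.37 (33 UMIs) CPM, and within cluster 16, which held 199 and 86 nuclei, at 17.2 (11 UMIs) and 13.2 (5 UMIs) CPM. FE3 was thus higher in each cluster, but only in cluster 5 do the intervals of the 2 levels, 7.57 to 23.2 and 1.33 to 5.51 CPM, lie apart.

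Cyp7b1 in oligodendrocytes stood at 32.2 CPM (19 UMIs) in FE3 and 10.5 CPM (9 UMIs) in TAFE3_oil, a log2 ratio of -1.61 (-2.94 to -0.40). It was called in 8 of the 12 alternatives, and the direction turned in the 2 that leave out shallow nuclei: 0.060 with at least 1000 UMIs per nucleus and 0.090 after thinning. FE4 and TAFE4_oil stood at 19 and 10.4 CPM. The remaining 4 values of this comparison lay in small classes: Cyp46a1 was -1.18 in pericytes or smooth muscle cells, -1.11 in choroid plexus epithelial cells and 1.05 in leptomeningeal fibroblasts, and Hsd3b7 was -2.5 in choroid plexus epithelial cells (18 UMIs against 3). The 3 Cyp46a1 values were called in 4, 8 and 5 of the 12 alternatives, and without a mitochondrial limit they were -0.51, -0.96 and 0.36, none called. The calls in pericytes or smooth muscle cells came only from rescaled totals and from alternatives that could not drop a call. The Hsd3b7 value was called in 9 and was -1.10 after thinning. Against FE4, TAFE4_oil had Cyp27a1 in inhibitory neurons at 1.37 (20 UMIs against 6), Cyp46a1 in endothelial cells at -1.34 and Cyp7b1 in leptomeningeal fibroblasts at -1.57. These were called in 6, 8 and 7 alternatives. Cyp27a1 was 0.23 after thinning, Cyp46a1 was -0.56 without a mitochondrial limit and -0.20 after thinning, and Cyp7b1 was -0.69 without the limit, all uncalled.

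Reading all 6 libraries at once, 52 member values were tested for whether the 4 tau libraries lay wholly above or below the 2 FE libraries. In 4 values all tau libraries were higher, where 16.3% of all genes' values were, and in 7 all were lower, where 8.61% were. The 4 higher values were Ch25h and Soat1 in microglia, Cyp27a1 in leptomeningeal fibroblasts and Cyp27a1 in subicular or cortical neurons. The last of these stood at 0.948 and 1.04 CPM in FE3 and FE4 and at 1.15 to 2.61 CPM in the tau libraries. In TAFE4_tam it stood at 1.76 CPM and the liver transcripts in that class at 31.5 CPM, whose part in it was not tested. The 7 lower values were Cyp46a1 in dentate granule neurons, CA2 or CA3 neurons and pericytes or smooth muscle cells, Cyp7b1 in microglia, inhibitory neurons and subicular or cortical neurons, and Soat1 in subicular or cortical neurons. Within microglia alone, 17.4% of genes were higher and 12.5% lower in this way. Without FE4 the members' count was 26 in place of 11, and without FE3 or TAFE3_oil it was 17. Leaving out a library makes separation easier for any gene, and the shares over all genes were not computed for these counts.

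In microglia, Soat1 in the tau libraries lay at 124 to 157 CPM and in the FE libraries at 74.9 and 82.3. Its log2 ratio was 0.62 (-0.41 to 1.87) in TAFE3_oil against FE3, where FE3 had 8 UMIs, and 0.72 (0.17 to 1.32) in TAFE4_oil against FE4; neither reached 2-fold. Cyp7b1 stood the other way, at 41.2 CPM (4 UMIs) in FE3 and 38.6 CPM (17 UMIs) in FE4 and 10.5 to 23.8 CPM in the tau libraries, with a ratio of -0.84 (-1.80 to 0.14) in TAFE4_oil against FE4. In dentate granule neurons, Cyp46a1 stood at 185 and 171 CPM in FE3 and FE4 and at 141, 153, 153 and 137 CPM in the tau libraries, and its ratio was -0.40 (-0.60 to -0.19) in TAFE3_oil against FE3. The 2 groups do not overlap for any of these 3 genes, and the differences are under 2-fold except for Cyp7b1 in TAFE3_oil.

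**Figure D3:**
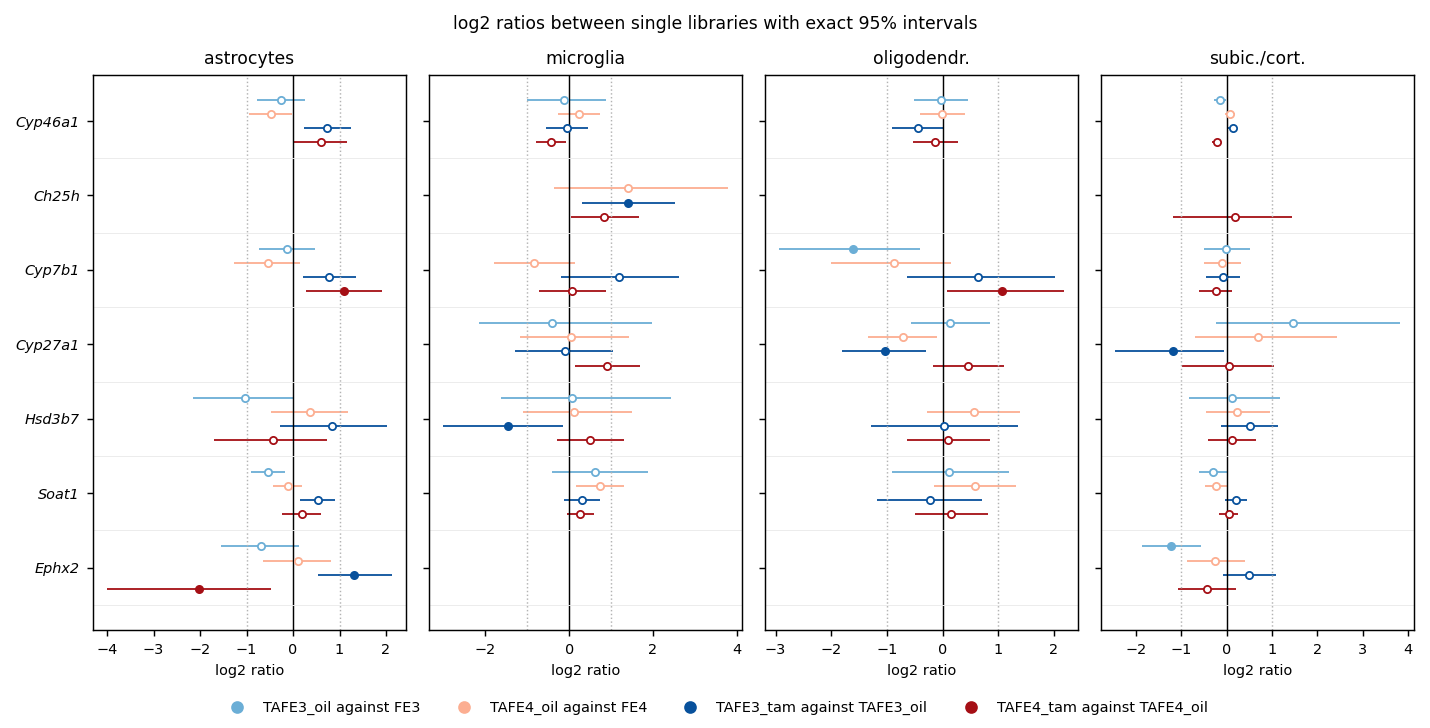
Each panel is 1 class and each row 1 member; the x axis is the log2 ratio between 2 libraries, bars are exact 95% intervals and filled points met the rule of 2-fold with the interval off 0. Values with under 20 UMIs are left out; the ratio of Ephx2 in astrocytes is 1.31 in TAFE3_tam against TAFE3_oil and -2.02 in TAFE4_tam against TAFE4_oil.

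Microglia fell into 4 named clusters that the groups filled unequally. Microglia 4, led by Selplg, P2ry12 and Tmem119, genes of resting microglia, held 88 of 98 FE3 and 491 of 520 FE4 nuclei. Microglia 1, led by genes such as Lilrb4, Itgax, Cd74 and Spp1 that are known from activated microglia, held 1 and 8 nuclei of the FE libraries and 203 to 655 of each tau library. Over all libraries, Soat1 stood at 162, 126, 120 and 80.1 CPM and Ch25h at 41.8, 20.8, 6.53 and 2.91 CPM in microglia 1, 2, 3 and 4. The clusters come from these same nuclei, so this is a description with no test.

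The order held for Ch25h between microglia 1 and microglia 3 within each tau library, at 28.2 against 3.66 CPM in TAFE3_oil, 88.9 against 0 in TAFE3_tam (0 UMIs), 36.7 against 9.41 in TAFE4_oil and 36.6 against 10.2 in TAFE4_tam. Of Soat1, microglia 1 and 3 stood at 153 and 114 CPM in TAFE3_oil, 193 and 71.5 in TAFE3_tam and 183 and 152 in TAFE4_tam, while in TAFE4_oil they stood at 126 and 127. Within microglia 4, the cluster that FE3 and FE4 share with the tau libraries, Soat1 stood at 98.0 (8 UMIs) and 71.2 (29 UMIs) CPM in FE3 and FE4 and at 58.0, 132, 53.6 and 111 CPM on 2 to 7 UMIs in the tau libraries, so the groups overlapped there. Over the clusters Cyp27a1 lay at 22.9 to 28.5 CPM and Hsd3b7 at 21.8 to 26.9 CPM. Cyp7b1 was highest in microglia 4 at 34.9 CPM, with 17.7 to 22.9 in the others.

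**Figure D4:**
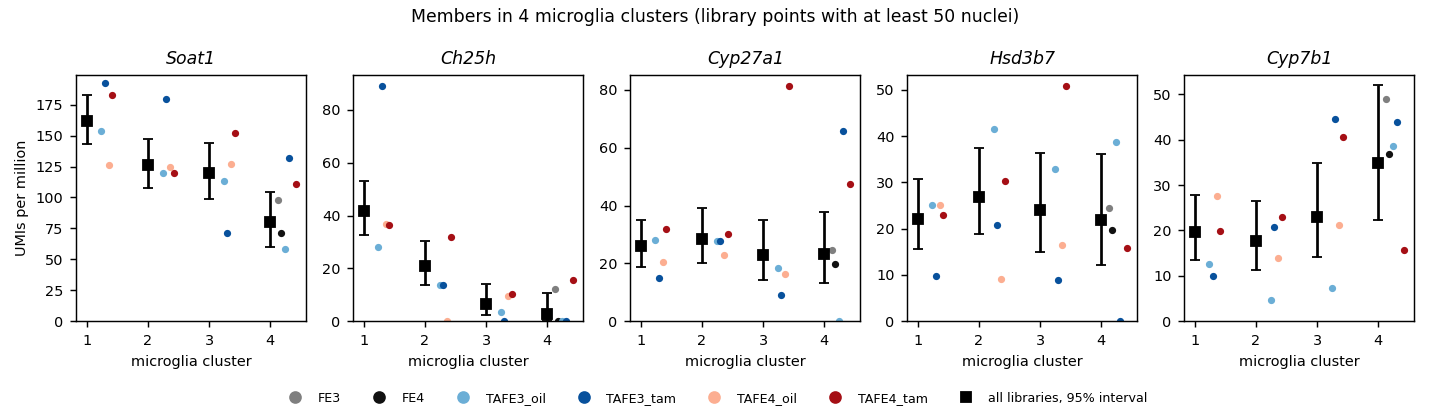
The x axis is the microglia cluster and the y axis the level in CPM; black squares are all libraries together with exact Poisson 95% intervals and coloured points single libraries with at least 50 nuclei in the cluster. Ch25h goes from 41.8 in microglia 1 to 2.91 in microglia 4 and Soat1 from 162 to 80.1.

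The second comparison set tamoxifen against oil within the tau mice. Here 6 of 52 member values met the 2-fold rule in TAFE3_tam against TAFE3_oil, 3 higher and 3 lower, against 2.31% over all genes, and 3 of 53 in TAFE4_tam against TAFE4_oil, 2 higher and 1 lower, against 3.42%. The oil libraries are the same that the first comparison used. Of these 9 values, 7 lay in astrocytes, microglia or oligodendrocytes. Over all genes, 2.19% to 2.73% of values in these classes met the rule in APOE3 and 3.99% to 4.91% in APOE4. The number of member values tested in these classes is not given, so the 7 cannot be set against those shares.

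In astrocytes, Cyp7b1 was higher after tamoxifen in both backgrounds. It stood at 34.5 CPM (23 UMIs) in TAFE4_oil and 73.4 CPM (33 UMIs) in TAFE4_tam, a log2 ratio of 1.09 (0.28 to 1.92) that met the rule in 11 of the 12 alternatives, the other giving no value. In the APOE3 background it stood at 59.5 CPM (45 UMIs) in TAFE3_oil and 102 CPM (68 UMIs) in TAFE3_tam, a ratio of 0.77 (0.21 to 1.35), under 2-fold. The TAFE3_oil level lay within the range of the FE libraries, 49.99 and 64.7 CPM, and the TAFE4_oil level below it. Soat1 had ratios of 0.53 (0.16 to 0.91) and 0.19 (-0.24 to 0.60) in APOE3 and APOE4.

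By astrocyte cluster, Cyp7b1 stood higher in the tamoxifen than in the oil library of its background in all 3 clusters: at 69.3 against 53.1, 106 against 62.4 and 116 against 56.6 CPM in APOE3, and at 42.7 against 27.4, 83.9 against 34.9 and 75.8 against 40.8 CPM in APOE4. These rest on 3 to 43 UMIs each. Oligodendrocytes read the same direction for the gene, from 10.4 CPM (11 UMIs) in TAFE4_oil to 21.9 CPM (39 UMIs) in TAFE4_tam, a ratio of 1.07 (0.08 to 2.19) that turned to -0.60 with at most 1% mitochondrial UMIs and to -0.022 after thinning. Liver transcripts stood at 85.9 CPM in these TAFE4_tam oligodendrocytes and, at the ratio of the liver-gene cluster, would bring 0.55 of the 21.9 CPM.

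Ephx2 in astrocytes differed in opposite directions. In APOE3 it stood at 27.8 CPM (21 UMIs) with oil and 68.9 CPM (46 UMIs) with tamoxifen, a log2 ratio of 1.31 (0.54 to 2.13). In APOE4 it stood at 36.0 CPM (24 UMIs) with oil and 8.90 CPM (4 UMIs) with tamoxifen, a ratio of -2.02 (-4.01 to -0.48). The FE libraries, at 44.8 and 33.3 CPM, lay between the 2 tamoxifen libraries. Both ratios kept their sign in the alternatives that gave a value but shrank to 0.49 and -0.45 without a mitochondrial limit, neither called; the first was also uncalled with doublets kept (0.98) and the second after thinning (-0.66). In the largest of the clusters in these libraries, astrocyte 2, the 4 tau values were 33.3 and 88.6 CPM in TAFE3_oil and TAFE3_tam and 41.4 and 3.99 CPM in TAFE4_oil and TAFE4_tam.

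In microglia, Ch25h stood at 15.1 CPM (13 UMIs) in TAFE3_oil and 39.6 CPM (20 UMIs) in TAFE3_tam, a ratio of 1.39 (0.31 to 2.52), and at 17.9 and 31.8 CPM in TAFE4_oil and TAFE4_tam, a ratio of 0.82 (0.04 to 1.66) under 2-fold. The APOE3 ratio was called in 7 of the 12 alternatives and was 0.68, uncalled, without a mitochondrial limit. Microglia 1 held 323 of 897 TAFE3_oil and 203 of 543 TAFE3_tam microglia, and 396 of 1043 TAFE4_oil and 655 of 1535 TAFE4_tam microglia. Hsd3b7 was lower in TAFE3_tam, at 11.9 CPM (6 UMIs) against 32.5 CPM (28 UMIs), a ratio of -1.45 (-3.01 to -0.15), while TAFE4_tam stood above TAFE4_oil at 27.8 against 19.7 CPM. That ratio was called in 5 alternatives, was -0.88 with the doublet-like clusters kept and near 0 (-0.051) without a mitochondrial limit. In oligodendrocytes Cyp27a1 stood at 53.8 CPM in TAFE3_oil and 26.3 CPM in TAFE3_tam, a ratio of -1.03 (-1.81 to -0.29), and at 30.3 and 41.5 CPM in TAFE4_oil and TAFE4_tam. The call was kept in 4 alternatives and lost in 7, with -0.58 at clustering resolution 0.5 and -0.49 after thinning. The 2 values left in APOE3 were Cyp27a1 in subicular or cortical neurons at -1.19 (9 UMIs against 28), which was -0.10 with at most 1% mitochondrial UMIs and -0.0058 after thinning, and Cyp46a1 in choroid plexus epithelial cells at 1.16, which was 0.80 with doublets kept.

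Over the 4 tau libraries together, 46 member values were tested for whether both tamoxifen libraries lay above or below both oil libraries. In 12 both were higher, where 18.3% of all genes' values were, and in 8 both were lower, where 16.8% were. Cyp46a1, Cyp7b1 and Soat1 were higher in astrocytes and Ch25h, Cyp7b1 and Soat1 in microglia. Also higher were Hsd3b7 and Soat1 in subicular or cortical neurons, Ephx2 in inhibitory neurons and Soat1 in leptomeningeal fibroblasts. Cyp7b1 was higher in oligodendrocytes and their precursors as well. Cyp46a1 was lower in inhibitory neurons, microglia, oligodendrocytes, oligodendrocyte precursors and leptomeningeal fibroblasts. Cyp7b1 was lower in inhibitory neurons and in CA2 or CA3 neurons, and Soat1 in CA1 neurons. In astrocytes Cyp46a1 stood at 76.7 and 79.6 CPM with oil, 127 and 120 CPM with tamoxifen, and 92.1 and 111 CPM in FE3 and FE4. The neuronal transcripts there stood at 7881 and 8541 CPM with oil and at 7623 and 8084 CPM with tamoxifen. The part of free RNA in the Cyp46a1 values was not tested. Without TAFE3_tam the count of such values was 33 in place of 20, and the share over all genes without that library was not computed.

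The third comparison set APOE4 against APOE3 in each state. In FE4 against FE3, 3 of 49 member values met the 2-fold rule, 1 higher and 2 lower, against 3.4% over all genes. In TAFE4_oil against TAFE3_oil it was 0 of 52, against 2.24%, and in TAFE4_tam against TAFE3_tam 3 of 54, all lower in APOE4, against 3.13%. The value set farthest from 0 was again Ephx2 in astrocytes, at -2.95 (-4.89 to -1.5) in TAFE4_tam against TAFE3_tam, which met the rule in 11 alternatives, the smallest being -1.14 without a mitochondrial limit, and had no value in the other. With oil the ratio of the same gene was 0.38 (-0.53 to 1.29) and without tau -0.43 (-1.06 to 0.22).

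The other values were Cyp46a1 at -1.64 and Soat1 at -1.66 in endothelial cells of TAFE4_tam against TAFE3_tam (10 against 32 and 8 against 26 UMIs), and, in FE4 against FE3, Cyp46a1 in leptomeningeal fibroblasts at 1.08, Hsd3b7 in choroid plexus epithelial cells at -1.18 and Ephx2 in dentate granule neurons at -1.30. The last of these was 0.70 in the other direction after thinning. Without a mitochondrial limit the endothelial Soat1 value was -0.35 and the fibroblast Cyp46a1 value 0.58, both uncalled, and endothelial Cyp46a1 was -1.07. The choroid plexus value was called in 5 of the 12 alternatives and was -0.68 with doublets kept. FE4 and FE3 differ in mitochondrial share, given above, and this was not separated from the APOE allele. Cyp7b1 in astrocytes was lower in APOE4 in each state, at -0.37 (-0.89 to 0.16) in FE4 against FE3, -0.79 (-1.58 to -0.03) with oil and -0.47 (-1.12 to 0.15) with tamoxifen, always under 2-fold.

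Other genes of sterol handling were read in 6 lists. Among 9 LXR target genes, counted over all classes, 24 of 95 measured values met the 2-fold rule upwards and 0 downwards in TAFE4_oil against FE4, and 6 of 90 upwards and 1 downwards in TAFE3_oil against FE3. Over all genes, 7.38% of values were called higher and 1.8% lower in TAFE4_oil against FE4, and 2.37% higher and 2% lower in TAFE3_oil against FE3, and the counts of the lists below read against these shares. Abca1, the cholesterol exporter, stood in astrocytes at 101 CPM in FE3 and 217 in TAFE3_oil and at 99.98 in FE4 and 250.8 in TAFE4_oil, log2 ratios of 1.11 (0.71 to 1.51) and 1.33 (1.01 to 1.64). It was also over 2-fold higher in oligodendrocytes (1.03 and 1.29) and in subicular or cortical neurons (1.27 and 1.12). Mouse Apoe, which is among the 9 genes counted, had ratios of 2.60 and 4.07 in microglia, and in astrocytes -1.78 and -1.67 after tamoxifen. Human APOE, the floxed gene, went the same way in both classes. Whether counting assigned reads of 1 of these genes to the other was not tested. In microglia the median ratio of the list was 0.44 and 0.59 where all genes had -0.15 and 0.10.

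Of the 18 other oxysterol, bile acid and side-chain enzymes, 12 of 83 measured values were called higher and 3 lower in TAFE4_oil against FE4, and 2 of 74 higher and 6 lower in TAFE3_oil against FE3. Scp2, a sterol carrier and thiolase of peroxisomes, stood in astrocytes at 58.5 and 118 CPM in FE3 and TAFE3_oil (1.01) and at 54.2 and 141 CPM in FE4 and TAFE4_oil (1.38). Of the epoxide hydrolases and epoxygenases, Ephx4 was higher in astrocytes, from 21.2 to 56.9 CPM (1.43) and from 23.2 to 46.5 CPM (1.00). The oxysterol receptors and sterol sensors had 2 values of 111 called higher and 3 lower in APOE3 and 7 of 126 higher and 1 lower in APOE4, near the shares over all genes. The oxysterol-binding and transfer proteins had 3 of 169 higher and 3 lower in APOE3 and 12 of 179 higher and 2 lower in APOE4, also near those shares, among them Npc2, the lysosomal sterol carrier, in oligodendrocyte precursors (1.39 and 1.00) and Osbpl8 in microglia (1.28 in APOE4, with 1 UMI in FE3).

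The sterol ester turnover list had 0 of 49 values higher and 2 lower in APOE3 and 4 of 57 higher and 1 lower in APOE4, the latter near the share over all genes. Within it, Plin2, a coat protein of lipid droplets, stood in microglia at 9.08 CPM (4 UMIs) in FE4 and 38.5 CPM (43 UMIs) in TAFE4_oil, 2.09 (0.63 to 4.02), and Lipa, the lysosomal ester hydrolase, at 20.4 and 51.1 CPM, 1.32 (0.30 to 2.52); these 2 were named after their values were seen. For tamoxifen against oil, LXR targets had 0 higher and 2 lower of 97 values in APOE3. In APOE4 they had 1 higher and 10 lower of 95. Of all genes' values, 1.22% were called higher and 1.1% lower in APOE3 and 1.25% higher and 2.17% lower in APOE4. In both backgrounds the lower values of the list include mouse Apoe in astrocytes, given above beside the floxed human APOE. Counts of the list without mouse Apoe are not given, for tamoxifen or for tau. In TAFE4_oil against FE4 the median of all genes lay above 0 in every class with at least 50 nuclei in both libraries. It ran from 0.10 in microglia to 0.25 in inhibitory neurons and was 0.18 in astrocytes, so ratios there read against that shift.

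For each member, the genes whose level ran most alike over 66 points, 11 classes in 6 libraries, were ranked among 12045 genes by Pearson's r of log2(CPM + 5). Points of 1 library share its depth and points of 1 class its cells, so r is a description. Cyp46a1 ran with Slc12a5 (0.77), the neuronal chloride exporter, and with Krba1 and Tcf20. Ch25h ran with Grn (0.73), the progranulin gene, and with Psmb9 and Trim30a. Cyp7b1 ran with Mmd2 (0.85), Nfia and Smpd2, and Cyp27a1 with Wnk1 (0.86), Pla2g4a and Enpp2. Hsd3b7 ran with Nde1 (0.85), Sepp1 and Tor1aip1, Soat1 with Pdlim4 (0.88), Zfp36l2 and Tlr3, and Ephx2 with Prodh (0.81), the proline dehydrogenase, Fam20a and Oaf. Among the members themselves, Hsd3b7 and Soat1 had the highest r at 0.69 and Cyp46a1 and Cyp27a1 the lowest at -0.56.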

How the data were processed

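The authors' deposited files were filtered matrices of UMI counts per gene and nucleus, and per the file headers the software was Cell Ranger 3.1.0; the submitters' processing notes also name Seurat and mm10. The sources used here do not say whether counting used the strand, and the labels name 3′ end sequencing beside 5′ kits. The 7 genes and all gene lists were chosen with earlier results of these data known.

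Nuclei entered with 500 UMIs and 300 genes or more and a mitochondrial share of 5% or less, and doublets were removed with scrublet (scanpy 1.11.5). Its own threshold marked 1 nucleus in TAFE3_oil, so there the expected share with the highest scores, 1104 nuclei, was removed. The share removed ran from 3.74% in FE4 to 14.5% in TAFE4_tam. Clusters came from 2000 variable genes without the members, 30 principal components and Leiden at resolution 1 (leidenalg 0.10.2), and sub-clusters of microglia and astrocytes with high doublet scores stayed unnamed. Counts were summed per class and library. With 1 library per group no test between groups exists, so ratios carry exact binomial intervals at 95%, with counts under 3 set to 3. A ratio was called at 20 UMIs or more over both libraries, an absolute log2 of at least 1 and an interval off 0. Genes of other lists were named where both APOE backgrounds gave the same sign, at least 2-fold and at least 50 UMIs, at most 4 a list, and for each member the 3 genes most alike in level. Scripts were tested on simulated data. Alternatives, with edgeR 4.0.16 for TMM scaling, are given at the end.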

Additional observations from a re-analysis of the deposited data

Results flagged for a closer look

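The level of Ephx2 in astrocytes stood apart because tamoxifen against oil went opposite ways in the 2 APOE backgrounds: the log2 ratio was 1.31 in TAFE3_tam against TAFE3_oil and -2.02 in TAFE4_tam against TAFE4_oil. Without a mitochondrial limit these were 0.49 and -0.45, neither called. The 4 libraries read 27.8 CPM (21 UMIs) in TAFE3_oil, 68.9 CPM (46 UMIs) in TAFE3_tam, 36.0 CPM (24 UMIs) in TAFE4_oil and 8.90 CPM (4 UMIs) in TAFE4_tam. The difference between the 2 ratios was not tested, since each group is 1 library.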

How the results depend on the processing

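No paired analysis was possible because each group has 1 library. Of 3412 single values over 364 results and the alternatives run, 3285 moved by less than their counting interval and 122 by more. The other 5 belong to called values and turned direction. Direction was read for called values alone, so an uncalled value that changed sign stands among the 3285 or the 122. The 5 were Cyp7b1 in oligodendrocytes of TAFE3_oil against FE3 (0.060 with at least 1000 UMIs per nucleus, 0.090 thinned), the same gene and class in TAFE4_tam against TAFE4_oil (-0.60 with at most 1% mitochondrial UMIs, -0.022 thinned) and Ephx2 in dentate granule neurons of FE4 against FE3 (0.70 thinned). The causes were not tested, except that strict limits leave fewer nuclei and UMIs. Keeping the doublet-like clusters changes no counts outside microglia and astrocytes, so part of the 3285 values could not move.

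Counts of called values moved as follows. With at most 1% mitochondrial UMIs they were 1 (TAFE3_oil against FE3), 0 (TAFE4_oil against FE4), 0 (TAFE3_tam against TAFE3_oil), 0 (TAFE4_tam against TAFE4_oil), 1 (FE4 against FE3) and 0 (TAFE4_tam against TAFE3_tam). After thinning to 1000 UMIs they were 1, 0, 1 and 1 in the first 4 of these. At least 50 UMIs for a call gave 2 in TAFE3_oil against FE3 and in TAFE3_tam against TAFE3_oil, and 1 in TAFE4_oil against FE4, FE4 against FE3 and TAFE4_tam against TAFE3_tam. At least 1000 UMIs per nucleus gave 3 in TAFE3_oil against FE3 and 1 in TAFE4_tam against TAFE3_tam. No mitochondrial limit gave 1 in FE4 against FE3 and also 1 in TAFE4_oil against FE4. Keeping doublets gave 3 in TAFE3_oil against FE3 and 1 in FE4 against FE3; with TAFE4_oil set against TAFE3_oil it gave 2, where resolution 0.5 and no minimum of UMIs each gave 1. Resolution 0.5 gave 5 in TAFE4_tam against TAFE4_oil. Keeping the doublet-like clusters, chosen after seeing the data, gave 5 for TAFE4_tam against TAFE4_oil and 5 for TAFE4_oil against FE4. Shares over all genes under these alternatives are not given. A class under 50 nuclei in a library gave no value, so a lower count can mean values not measured. With the 1% limit, only Ephx2 in subicular or cortical neurons kept a value among the 6 called in TAFE3_oil against FE3.

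The counts of values without overlap, and their alternatives, were also chosen after seeing the data. For tau against FE the count was 4 with at most 1% mitochondrial UMIs, 7 with at least 1000 UMIs and 5 thinned, and 11 to 26 without 1 library (26 without FE4, 17 without FE3 and 17 without TAFE3_oil). For tamoxifen against oil it was 7 with at most 1% mitochondrial UMIs, 9 thinned, and 28 to 33 without 1 library (33 without TAFE3_tam). Shares over all genes were not computed for these alternatives, and leaving out a library makes separation easier for any gene. Most members had under 100 UMIs per class and library outside Cyp46a1 and Soat1, which sets the width of the intervals.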

Other observations

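A vascular cluster of 172 nuclei that was left unnamed held 37 UMIs of Ch25h in 9 of its 38 FE3 nuclei, 15 of them in 1 nucleus, and 0 to 7 UMIs in each other library. The cluster of 37 nuclei led by liver genes such as Cps1 and Ahsg, 32 of them in TAFE4_tam, read Cyp27a1 at 438 CPM, Hsd3b7 at 438 CPM, Ephx2 at 267 CPM and Cyp7b1 at 96.7 CPM in that library, all above the same gene's level in every named class of TAFE4_tam. The 8 liver genes read as a check stood at 33.6 CPM in inhibitory neurons and 75.4 CPM in microglia of TAFE4_tam.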
